A study of Sus scrofa domesticus with 9 samples.

Results

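ATP-binding cassette (ABC) proteins use ATP to carry lipids, drugs, bile constituents, peptides and cofactors across membranes, and the few members of subfamilies E and F have no membrane part and act in translation. The members described here are the genes named ABCA to ABCG with a number in the table of normalized counts, except ABCA3, ABCB4, ABCB11 and ABCC2. The rule found 38 of 35670 genes, and 3 further ABC-named genes of the table were left out by it. A mean normalized count over 20 was reached by 26 members, the rule for testing, beside 12446 of all genes.

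The libraries came from the lungs of 9 female domestic pigs (*Sus scrofa domesticus*), 1 library per animal, after 88 days of feeding. The standard-dose group (replicates 9, 17, 33 and 41) ate grower feed with 2000 IU of cholecalciferol (vitamin D3) per kg and then finisher feed with 1500 IU. For the increased-dose group (replicates 3, 19, 27, 51 and 59) these feeds held 3000 and 2500 IU. All animals were otherwise fed alike, and the study asked which lung mRNAs differ between the doses.

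ABC transporters bind ATP in a cytoplasmic domain whose Walker A motif holds the phosphates of the nucleotide, and full transporters carry a pair of such domains. In lung, ABC proteins are best known for loading lipids into surfactant, for passing cholesterol from macrophages to lipoproteins, and for exporting conjugated toxins. Active vitamin D works through the vitamin D receptor, a partner of the retinoid X receptor, which also pairs with the sterol and bile acid receptors that govern several ABC genes.

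The Walker A motif (glycine, any, any, glycine, any, glycine, lysine, then serine or threonine) was looked for in the RefSeq coding sequences of Sscrofa11.1, because it is what the family shares beyond its name. A coding sequence was found for 35 members, of which 34 had an intact reading frame of 600 to 2596 codons. The motif occurred in a pair in 20 members, among them all 6 of subfamily A, all 9 of subfamily C and all 4 of subfamilies E and F with an intact frame. It occurred once in 13 members, all of subfamilies B, D and G, and in 0 matches in 1, ABCG8. The 24 bases of the motif are printed 5′ to 3′ for the 4 members whose doses differed most against their spread, with the lysine codon and the serine or threonine codon in capitals.
ABCE1, first motif, chr8:83321228-83321251, minus strand: ggaactaatggtattggaAAGTCA
ABCE1, second motif, chr8:83308800-83310610 across an intron, minus strand: ggagaaaatggtactggtAAAACG
ABCA6, first motif, chr12:11247094-11247117, plus strand: ggtcacagtggagctggcAAATCT
ABCA6, second motif, chr12:11278029-11278052, plus strand: ggacctaacggtgctggtAAAAGT
ABCB10, chr14:60335268-60335291, plus strand: ggcccaagtggttctggcAAATCA
ABCG5, chr3:96617297-96626698 across an intron, plus strand: gggagctcaggctcggggAAAACC

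The depth was similar in both groups. Reads in genes numbered 4253502 to 5411543 in the standard-dose libraries and 4427608 to 5919294 in the increased-dose libraries, and 1 read was worth 0.853 to 1.49 normalized counts. Replicate 9 of the standard dose stood apart, with a median Spearman correlation to the other libraries of 0.751 over all genes tested, beside 0.831 for replicate 41 and 0.912 to 0.933 for the other 7. The tissue was checked by marker genes. Type 2 pneumocyte markers were present in every library (summed normalized counts of 3997 in replicate 9 and 15831 to 29140 in the other 8 libraries). Hepatocyte markers were present too, 13 of 15 in the table and 0 of these at 0, with summed normalized counts of 383360 in replicate 9, 104272 in replicate 41 and 28556 to 60498 in the other 7. Skeletal muscle markers summed to 258266 in replicate 41, 36797 in replicate 9 and 62095 to 148184 in the other 7. Between the doses, means were higher at the increased dose for 6 of 6 type 2 pneumocyte markers (median log2 difference 0.74, or 0.18 without replicate 9), 5 of 5 type 1 pneumocyte markers (0.89, or 0.51) and 7 of 8 macrophage markers (0.76, or 0.84). They were lower for 13 of 13 hepatocyte markers (−1.38, or −0.73) and 7 of 7 skeletal muscle markers (−0.24, or −0.74). Values that replicate 9 moves by much are therefore also given without it, and in bulk tissue fewer cells of a type and less RNA per cell cannot be told apart.

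No ABC member passed the test between doses. With limma on log2(normalized count + 1) and Benjamini-Hochberg adjustment over 12446 genes, 0 of the 26 members had an adjusted p under 0.05 and the smallest was 0.397, beside 0% of all genes. At an unadjusted p under 0.05 there were 4 members (15.4%) beside 12.2% of all genes. These were 2 with lower means at the increased dose, ABCA6 and ABCG5, beside 6.6% of all genes, and 2 with higher means, ABCE1 and ABCB10, beside 5.57%. The groups did not overlap for 1 member, ABCE1, beside 3.81% of all genes. The median log2 difference of the members, increased minus standard dose, was −0.29 (range −1.31 to 0.94), beside 0.01 over all genes, and it was negative for 16 members (61.5%), beside 49.2% of all genes.

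The count tests on the recovered reads gave the same count of calls for the members. With edgeR's quasi-likelihood test 0 members had an adjusted p under 0.05 (0% of all genes), the smallest adjusted p was 0.191, and 5 had an unadjusted p under 0.05 (15% of all genes). These 5 were ABCE1, ABCA6, ABCG5, ABCA8 and ABCG8. With DESeq2 0 members had an adjusted p under 0.05 (1.57% of all genes), the smallest adjusted p was 0.106, and 4 had an unadjusted p under 0.05 (13.6% of all genes). These 4 were ABCE1, ABCA6, ABCG5 and ABCC6. DESeq2 gave neither an unadjusted nor an adjusted p for 2 members, ABCA8 and ABCG8, both highest in replicate 9, so its counts leave them out. Without replicate 9 the median log2 difference of the 25 members still over the mean of 20 was −0.13, 2 had an unadjusted p under 0.05 (9.29% of all genes) and 0 an adjusted one (0% of all genes). Without replicates 9 and 41 the median was −0.11 and the unadjusted count was 1 (4.91% of all genes), with 0 by adjusted p (0% of all genes).

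**Figure D1:**
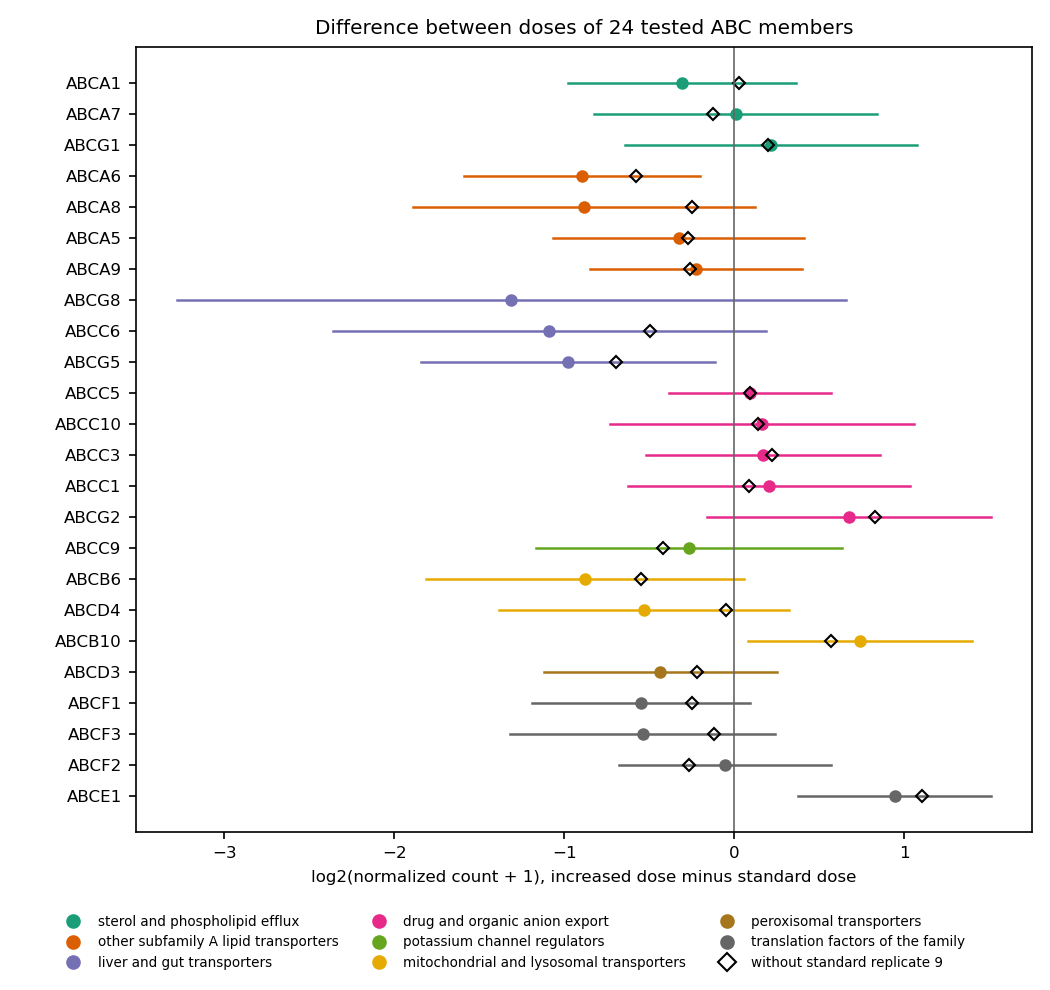
Log2 difference between doses of 24 of the 26 ABC members tested, as increased minus standard dose of log2(normalized count + 1) on the x axis, by role (colour). Filled circles are estimates with 95% limma intervals from 9 libraries and open diamonds the estimates without standard-dose replicate 9; the intervals of ABCA6, ABCG5, ABCB10 and ABCE1 do not reach 0, and ABCG8 has no diamond because its mean falls under 20.

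Levels of the members differed widely. QuantSeq reads start at the 3′ end of each mRNA, so a count does not scale with gene length, and levels are given as normalized counts without a length correction. The highest means were those of ABCC5 (681), ABCA1 (403) and ABCF1 (393), and these 3 held 40.7% of the summed counts of the tested members. A mean over 100 was reached by 10 members. Of the 12 members not tested the highest mean was 10.0 (ABCC8), and ABCC12 had no read. The others of low level were ABCA2, ABCA4, ABCA12, ABCA13, ABCB5, ABCB8, ABCB9, ABCC11, ABCD2 and ABCG4. Reads in all 9 libraries were present for 27 members. For ABCC12, ABCB5 and ABCA4 the RefSeq gene ends 3329, 13270 and 1900 bases further 3′ than the annotation used for counting, and reads there would not be in these counts.

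**Figure D2:**
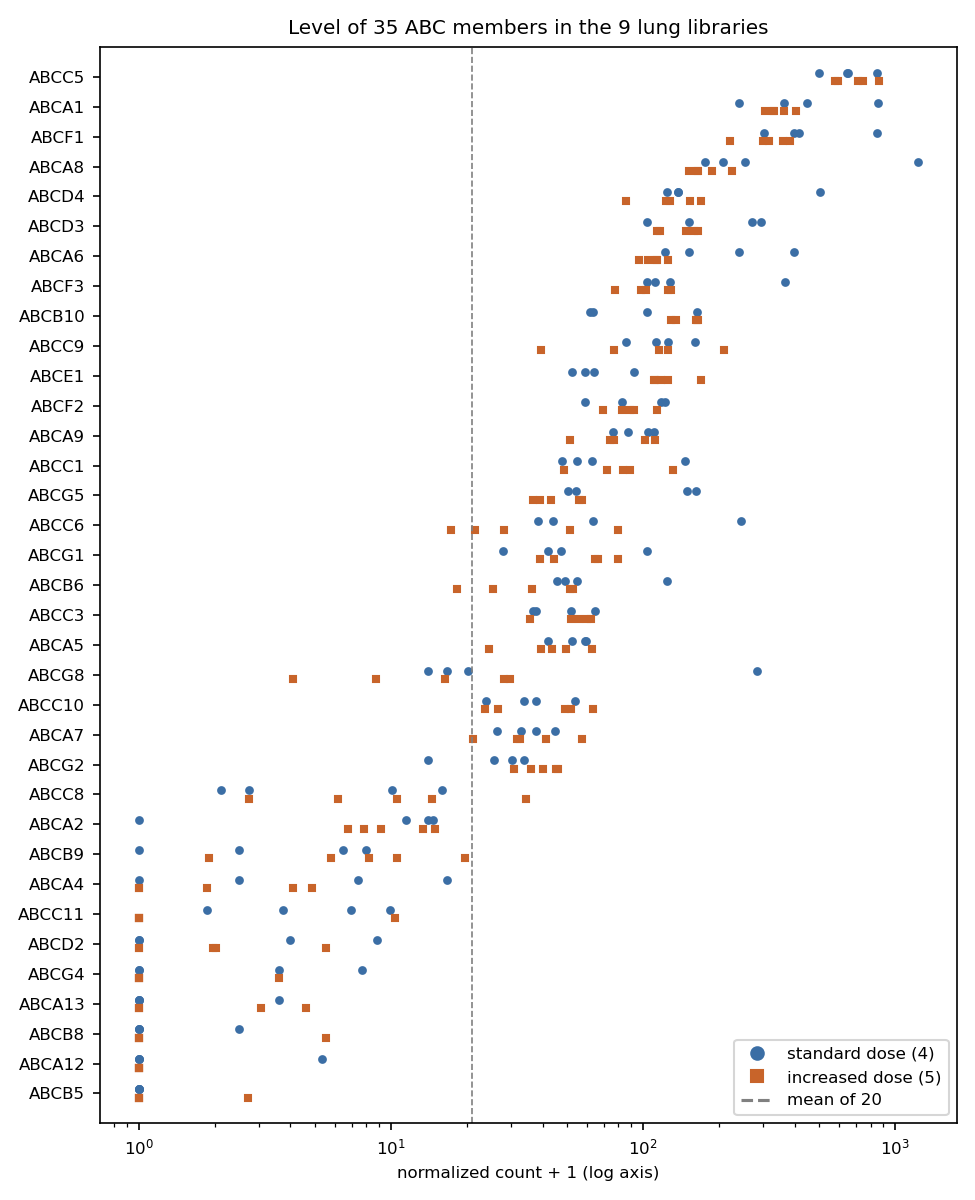
Normalized count plus 1 (log axis) of 35 ABC members with a read, ordered by mean. Circles are the 4 standard-dose and squares the 5 increased-dose libraries, and the dashed line marks a normalized count of 20; ABCC5 is highest, and ABCA8 and ABCG8 have the standard-dose library farthest from the rest.

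Among the translation factors, ABCE1 differed most. ABCE1 (chromosome 8, 83299322 to 83353109, Sscrofa11.1) splits ribosomes into subunits after termination and carries iron-sulfur clusters. Its normalized counts were 91.0, 63.1, 51.3 and 58.2 in standard-dose replicates 9, 17, 33 and 41, and 169, 125, 110, 117 and 111 in increased-dose replicates 3, 19, 27, 51 and 59. The lowest increased-dose library lay above the highest standard-dose library. The log2 difference was 0.94 (SE 0.26, 95% interval 0.38 to 1.51, n = 4 and 5), with an unadjusted p of 0.0033 and an adjusted p of 0.397 by limma. The exact two-sided permutation test gave p = 0.00794, the smallest that choosing 4 among 9 libraries allows. It rests on the same separation of the groups and is no separate result. Groups did not overlap for 3.81% of all genes. The counts rest on 52 to 187 reads per library, 929 in all. Leaving out each library in turn gave log2 differences of 0.83 to 1.11, without replicate 9 the value was 1.11, and without replicates 9 and 41 it was 1.12. The pneumocyte and macrophage markers also had higher means at the increased dose, and their part in the values of ABCE1 and the other members with higher means was not tested.

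ABCF1, which binds the initiation factor eIF2, counted 850, 397, 415 and 301 at the standard dose and 383, 221, 316, 358 and 298 at the increased dose. Its groups overlapped, and its log2 difference was −0.55 (SE 0.30), or −0.25 without replicate 9. ABCF3, a soluble protein of the same subfamily, counted 364, 127, 103 and 111 against 125, 129, 97.5, 76.3 and 102. In both genes replicate 9 was the highest library, and for ABCF3 the log2 difference was −0.54 (SE 0.36), or −0.12 without it. The remaining member, ABCF2, had a log2 difference of −0.05, or −0.26 without replicate 9. Of 9 tested partners in ribosome recycling and initiation, 6 had lower and 3 higher means at the increased dose and 0 passed the test. PELO, which with HBS1L opens stalled ribosomes for ABCE1, had a log2 difference of 0.19 (0.13 without replicate 9), HBS1L one of −0.08 (0.18), and the release factor ETF1 one of −0.09 (−0.13).

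**Figure D3:**
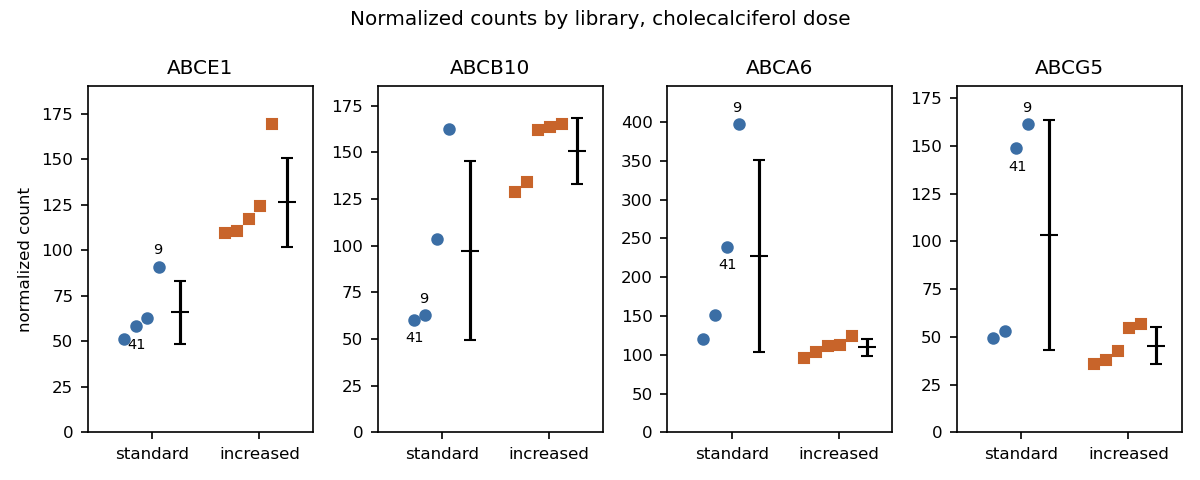
Normalized counts (y axis, from 0) of ABCE1, ABCB10, ABCA6 and ABCG5 in each library by cholecalciferol dose. Circles are the 4 standard-dose libraries, with replicates 9 and 41 numbered, squares the 5 increased-dose libraries, and bars the mean ± SD; the groups of ABCE1 do not overlap, while ABCA6 and ABCG5 are highest in replicates 9 and 41.

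The transporters of mitochondria and lysosomes numbered 4 tested members, of which 3 had lower means and 1 a higher mean at the increased dose. ABCB10 (chromosome 14, 60309931 to 60346280), a transporter of the inner mitochondrial membrane needed for haem synthesis, counted 62.7, 103, 163 and 60.4 at the standard dose and 164, 129, 134, 165 and 162 at the increased dose. Replicates 9 and 41 were its lowest libraries and replicate 33 reached the level of the increased dose. Its log2 difference was 0.74 (SE 0.31, n = 4 and 5), with p = 0.031 and an adjusted p of 0.401 by limma and an exact permutation p of 0.0397. The unadjusted p of ABCB10 was 0.064 by edgeR and 0.076 by DESeq2. Without replicate 9 the log2 difference was 0.57, and without replicates 9 and 41, its lowest libraries, it was 0.21.

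ABCD4, which carries cobalamin (vitamin B12) out of lysosomes, counted 503, 137, 137 and 123 against 122, 84.4, 170, 153 and 127. Replicate 9 lay at 3.81 times the median of the other libraries, and the log2 difference of −0.53 (SE 0.40) was −0.05 without it. ABCB6, a porphyrin transporter singled out after its values were seen, had a log2 difference of −0.88, or −0.55 without replicate 9. Of 10 tested haem and iron-sulfur partners 6 had lower and 4 higher means, and of 5 tested cobalamin partners 2 had lower and 3 higher means. None of these 15 genes had an adjusted p under 0.05 by limma, beside 0% of all genes. An unadjusted p under 0.05 was reached by 2 of the 15, near the share of 12.2% of all genes. These were CPOX (−0.78), an enzyme of haem synthesis, and MMUT (−1.28), which uses cobalamin. Both were highest in replicate 9: CPOX counted 270 there beside 44.4 to 121 in the other libraries, and MMUT 2093 beside 203 to 542. Without replicate 9 their log2 differences were −0.43 and −0.67.

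The transporters known best from liver and gut, ABCG5, ABCG8 and ABCC6, were all highest in replicate 9, and with that library all had lower means at the increased dose. Without replicate 9 the untransformed mean of ABCG8 was 16.0 at the standard and 16.4 at the increased dose. No log2 difference was fitted for ABCG8 without that library. ABCG5 and ABCG8 work as a dimer that secretes sterols into bile and the gut lumen. Their genes lie head to head on chromosome 3, ABCG8 at 96596531 to 96616229 on the minus strand and ABCG5 at 96616246 to 96656889 on the plus strand, with 16 bases between the starts of the annotation used for counting. The 79 bases between the RefSeq starts (chr3:96616225-96616303, plus strand, Sscrofa11.1), which hold both start regions, are printed with no base in capitals.
ABCG8 to ABCG5: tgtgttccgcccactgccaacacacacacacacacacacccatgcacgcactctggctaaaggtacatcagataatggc

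ABCG5 counted 161, 49.4, 53.1 and 149 at the standard dose and 38.0, 35.8, 56.6, 54.6 and 42.4 at the increased dose. Replicate 9 lay at 3.15 times the median of the other libraries and replicate 41 close to it, while replicates 17 and 33 lay within the range of the increased dose. Its log2 difference was −0.98 (SE 0.40), with p = 0.029 and an adjusted p of 0.401 by limma and an exact permutation p of 0.0556, and it was −0.70 without replicate 9. It was −0.19 without replicates 9 and 41, and −0.33 with array weights. ABCG8, singled out after its values were seen as the partner of ABCG5, counted 283, 19.2, 13.0 and 15.7 against 27.1, 15.4, 28.7, 3.09 and 7.70. Its mean passed 20 through replicate 9 alone, which held 190 of its 332 reads and lay at 18.3 times the median of the other libraries. The log2 difference of −1.31 (SE 0.91) is fitted with that library. In replicate 41, where ABCG5 was high, ABCG8 was not.

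ABCC6, which in liver releases ATP and so sets the plasma level of the mineralization inhibitor pyrophosphate, counted 243, 43.0, 37.4 and 62.7 against 27.1, 78.5, 50.5, 20.6 and 16.4. The groups overlapped, replicate 9 was 6.05 times the median of the other libraries, and the log2 difference was −1.09 (SE 0.59), or −0.50 without it. The 13 hepatocyte markers were highest in replicate 9 as well, and all had lower means at the increased dose (median log2 difference −1.38, or −0.73 without replicate 9). Their part in the values of ABCG5, ABCG8 and ABCC6, or of the other members that were highest in replicate 9, was not tested. Of 9 tested nuclear receptors that act on ABC genes 4 had lower and 5 higher means, with 0 passing the test, beside 0% of all genes. The vitamin D receptor gene VDR, with a mean of 7.75, was not tested. The retinoid X receptor gene RXRA had a log2 difference of −0.20, or −0.30 without replicate 9. The bile acid receptor NR1H4, which acts on ABC genes in liver and gut, had a log2 difference of −1.56 (unadjusted p = 0.010 by limma), or −0.99 without replicate 9, where it counted 385 beside 27.0 to 118 in the other libraries. The fat cell and macrophage receptor PPARG had one of 1.41 (unadjusted p = 0.015 by limma), or 1.32 without replicate 9. NR1H4 and PPARG both had an adjusted p of 0.397 by limma, and an unadjusted p under 0.05 was reached by 12.2% of all genes.

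Of the other lipid transporters of subfamily A, all 4 tested had lower means at the increased dose (median log2 difference −0.61, or −0.27 without replicate 9). ABCA5, ABCA6, ABCA9 and ABCA8 lie in this order within 11067500 to 11447295 of chromosome 12, and such neighbouring paralogs can share reads. The RefSeq model of ABCA6 ends 83066 bases further 3′ and spans ABCA9, so the 3′ end of ABCA6 is uncertain. ABCA6 (11225384 to 11286095) counted 397, 151, 121 and 240 at the standard dose and 111, 104, 113, 125 and 95.3 at the increased dose. Only replicate 33 lay within the range of the increased dose. The log2 difference was −0.90 (SE 0.32), with p = 0.015 and an adjusted p of 0.397 by limma and an exact permutation p of 0.0159. Without replicate 9 it was −0.58, without replicates 9 and 41 it was −0.30, and with array weights it was −0.49. ABCA8, which promotes cholesterol efflux, counted 1234, 208, 176 and 253 against 152, 224, 164, 165 and 187. Replicate 9 was at 6.81 times the median of the other libraries, and the log2 difference of −0.88 (SE 0.47) was −0.25 without it. ABCA9 was not high in replicate 9 (86.5, within 50.3 to 110 of the other libraries), and ABCA5 counted 58.2 there beside 23.5 to 61.8.

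The sterol efflux transporters had 1 lower and 2 higher means among 3 tested members. ABCA1, which hands cholesterol and phospholipid to apolipoprotein A-I, counted 853, 361, 239 and 447 at the standard dose and 403, 305, 330, 329 and 363 at the increased dose. The increased-dose libraries lay inside the range of the standard dose, and the log2 difference of −0.31 (SE 0.31, 95% interval −0.98 to 0.36) was 0.03 without replicate 9. ABCG1, which passes cholesterol to high-density lipoprotein, counted 46.2, 102, 40.9 and 26.9 against 65.1, 43.5, 78.4, 38.1 and 63.5. Its highest and its lowest library were both of the standard dose, and the log2 difference was 0.22 (SE 0.40). It was −0.05 without replicate 41. In that library the macrophage markers, 8 of 9 in the table, summed to 3747, beside 11511 in replicate 9 and 13715 to 20932 in the other 7. Replicate 41 also had the highest sum of skeletal muscle markers (258266). The part of either marker set in the values of ABCG1 was not tested. Of 9 sterol efflux partners 6 had lower and 3 higher means and 0 passed the test, beside 0% of all genes. The acceptor gene APOA1 had a log2 difference of −1.43 (unadjusted p = 0.013 and adjusted p = 0.397 by limma), where 12.2% of all genes had an unadjusted p under 0.05. It counted 16767 in replicate 9 beside 1163 to 2785 in the other libraries, and its log2 difference was −0.74 without replicate 9.

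The exporters of drugs and organic anions were the role in which all 5 tested members had higher means at the increased dose, by log2 differences of 0.09 to 0.67 (median 0.17, or 0.14 without replicate 9), and 0 of these passed the test. ABCC5, an exporter of organic anions and the most highly counted member, counted 649, 644, 498 and 845 at the standard dose and 863, 745, 579, 591 and 713 at the increased dose. The groups overlapped almost fully and the log2 difference was 0.09 (SE 0.22, 95% interval −0.38 to 0.57). ABCC1, which exports glutathione conjugates and leukotriene C4, counted 53.7, 46.6, 61.8 and 147 against 131, 47.8, 82.7, 87.6 and 71.3. Its log2 difference was 0.21 (SE 0.38), or 0.09 without replicate 9, with the highest library, replicate 41, in the standard-dose group. ABCG2, an exporter of drugs and urate singled out after its values were seen, counted 32.8, 29.3, 13.0 and 24.6 against 29.8, 39.2, 44.4, 35.0 and 45.3. Its limma p was 0.11 and its exact permutation p 0.0238, and its log2 difference of 0.67 (SE 0.39) was 0.40 without replicate 33, the lowest library. The drug exporter ABCB1, which bears no name in the table and is therefore no member, had a lower mean, with a log2 difference of −0.59 (SE 0.42). The ABC proteins under other symbols had higher means, CFTR, the chloride channel of airway epithelium, by 0.61 (0.24 without replicate 9), and the peptide transporters TAP1 by 0.39 (0.12) and TAP2 by 0.57 (0.44) on the log2 scale, with 0 of 3 passing the test.

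Of the peroxisomal transporters, ABCD3, which brings branched and bile acid precursors into the peroxisome, counted 292, 151, 103 and 271 against 113, 116, 158, 147 and 165. Replicates 9 and 41 were its high libraries, and its log2 difference was −0.44 (SE 0.32), or −0.22 without replicate 9. Of 7 tested peroxisome partners 6 had lower means and 6 were highest in replicate 9, and 0 passed the test. ABCC9, the regulatory subunit of ATP-sensitive potassium channels in muscle and pericytes, counted 85.0, 125, 111 and 160 against 209, 38.4, 75.7, 125 and 115. Its highest and lowest libraries were both of the increased dose, and its log2 difference was −0.27 (SE 0.42), or −0.42 without replicate 9. The pore subunit KCNJ8 had a log2 difference of 0.92 (1.07 without replicate 9) and KCNJ11 one of −0.08 (−0.45).

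Replicate 9 was the library in which members were most often highest. Of the 26 tested, 12 (46.2%) had their highest count there, beside 29.1% of all genes, and 10 (38.5%) were at least 2 times the median of the other 8 libraries, beside 20.9% of all genes. ABCG8, ABCA8, ABCC6, ABCD4 and ABCF3 had the highest ratios. At the other end stood ABCB10, at 0.424 times the median. The tested members, ABCG8 included, summed to 6776 normalized counts in replicate 9 and 2930 to 3817 in the other 8. The median SD of the members on the log2 scale was 0.67 over the standard-dose libraries, 0.36 over these without replicate 9, and 0.33 over the increased-dose libraries, beside 0.60, 0.45 and 0.38 for all genes.

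**Figure D4:**
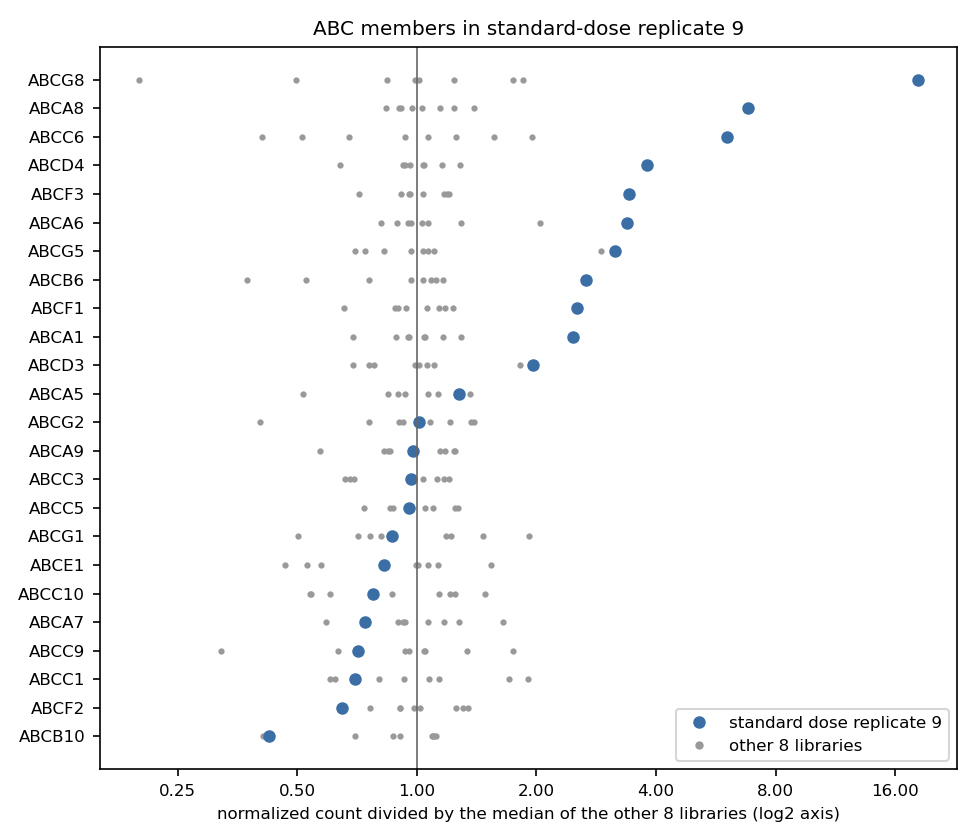
Count of 24 tested ABC members in standard-dose replicate 9 (large circles) and in the other 8 libraries (small points), divided by the median of those 8 (log2 axis). Members run from ABCG8 at 18.3, which is tested only through this library, to ABCB10 at 0.424.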

How the data were processed

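Lung RNA of 9 pigs was sequenced with a QuantSeq 3′ kit; 1 of 10 libraries had been rejected by the authors. Reads were trimmed with FLEXBAR 3.5.0, mapped to Sscrofa11.1 (TopHat 2.1.1) and assigned to the genes of Ensembl annotation 96 (HTSeq-count 0.11.1). The deposited signal values are these gene counts after the authors divided each library by its DESeq2 size factor. Fold changes, test statistics and p-values of the authors were not used. All values were whole multiples of 1 read (tolerance 0.01), so reads were recovered. Replicates bear the animal numbers of the sample titles; replicate 33 is named 31 in its column.

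Genes with a mean over 20 were tested with limma 3.58.1 (trend) on log2(value + 1), two-sided, threshold 0.05, with Benjamini-Hochberg adjustment. Exact permutation tests over libraries, edgeR 4.0.16, DESeq2 1.42.0, TMM factors, array weights, pseudocounts of 0.5 and 5, no filter, a filter of 10 in 4 libraries, and left-out libraries were alternatives. The main limma fit, edgeR and DESeq2 were also run on simulated counts. The other alternatives fitted across genes were not. Intervals cover the spread between animals; counts of few reads also carry counting error. Members and lists were chosen with earlier results of these data known. Described with every value were the 2 members of highest mean in each role, those with an unadjusted p under 0.05 and those whose groups did not overlap. Some items, 2 members among them, are not reported here one by one and stay in the counts. Coding sequences and the genome are RefSeq's. Scripts ran in R 4.3.3 and Python 3.11.15 (pandas 2.3.3, numpy 2.4.6, matplotlib 3.10.9, scipy 1.17.1).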

Additional observations from a re-analysis of the deposited data

Results flagged for a closer look

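Among 36 groups of libraries (18 members in each dose group), 3 held a library whose gap to its nearest neighbour on the log2 scale was large against the range of the group, and chance gives this in about 1 in 20 groups. All were standard-dose replicate 9, for ABCD4 (503, a gap of 0.922 of the range), for ABCF3 (364, 0.832) and for ABCG8 (283, 0.879). High counts in replicate 9 were not particular to members, since 20.9% of all genes were there at least 2 times the median of the other libraries. The share of all genes that this rule would flag was not worked out. ABCG8 was added after its values were seen and is tested only through replicate 9, so the rate given by chance does not apply to it.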

How the results depend on the processing

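By adjusted p, 0 members passed the threshold under every alternative run, and the smallest adjusted p of a named member under any of them was 0.106 (ABCE1, DESeq2). The count at an unadjusted p under 0.05 was 4 in the report, beside 12.2% of all genes. It was 2 without standard-dose replicate 9 (9.29% of all genes) and 1 without standard-dose replicates 9 and 41 (4.91%). It was 2 with array weights and 2 to 7 with single libraries left out. Among these it was 2 without increased-dose replicate 3 or increased-dose replicate 59, and 7 without standard-dose replicate 33. For array weights and the single left-out libraries other than replicate 9 the share of all genes was not worked out. These counts are therefore not read as a result about the members. The median log2 difference was −0.11 without replicates 9 and 41 and −0.35 to −0.13 with single libraries left out. Of 322 values for the 18 members followed, 313 kept their direction and 9 did not. ABCA1 (−0.31) was 0.051 with array weights, 0.23 without replicates 9 and 41, and −0.58 to 0.027 with single libraries left out. ABCG1 (0.22) was −0.21 with array weights, −0.21 without replicates 9 and 41, and −0.054 to 0.58 with single libraries left out. ABCD3 was 0.15 without replicates 9 and 41. With single libraries left out, ABCC5 ranged from −0.034 to 0.22 and ABCC9 from −0.54 to 0.063. Except for the left-out libraries themselves, the cause was not tested. Without replicate 9, or without 9 and 41, ABCG8 gave no value, since its mean was under 20. No paired analysis was possible because the dose groups share no replicate numbers. A mean of 20 corresponds to few reads per library, so members near it carry most counting error.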

Other observations

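The table leaves some ABC genes without a name, and 2 of these were matched to a RefSeq gene of Sscrofa11.1 on the same strand. ABCB1, the drug exporter P-glycoprotein (ENSSSCG00000015390, chromosome 9, 93050111 to 93146467), counted 280, 140, 72.2 and 199 at the standard dose and 215, 119, 65.3, 83.5 and 79.9 at the increased dose. Its log2 difference was −0.59 (SE 0.42, exact permutation p = 0.270). ABCC4, an exporter of cyclic nucleotides and prostaglandins (ENSSSCG00000026996, chromosome 11, 64089153 to 64309836), counted 113, 101, 135 and 77.2 at the standard dose and 139, 160, 120, 103 and 202 at the increased dose. Its log2 difference was 0.43 (SE 0.27, exact permutation p = 0.119). Both were outside the count of 38, and neither had an adjusted p under 0.05 by limma.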
